A study of Mus musculus with 5 samples.

Results

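Antiviral interferon-stimulated genes (ISGs) are the genes that cells switch on when interferon reaches its receptor. They were followed here in CD11b+ macrophages taken from tumour-bearing Matrigel plugs. The set held 34 genes named for their known antiviral role, set beside 17074 genes tested through a probe set of their own. The 34 genes were chosen with earlier results of these data known. Of the 34, 31 had at least 1 probe set annotated to them alone, Isg15 had 1 that it shares with the predicted gene Gm9706, and Oas1g and Ifi44 were not analysed here. The 32 measured genes were covered by 53 probe sets, all above the floor on every array.

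The study used Balb/c SCID mice aged 7 to 12 weeks that carry a transgenic T-cell receptor specific for the idiotype of MOPC315, a mouse myeloma that secretes an antibody. The SCID defect leaves such hosts with few other T and B cells, while natural killer and myeloid cells remain. Tumoricidal macrophages (3 arrays) came from plugs loaded with MOPC315, and control macrophages (2 arrays) from plugs loaded with an antigen-loss MOPC315 line, in hosts with the same receptor. All were sorted on day 8, so that both groups share the receptor, the gel, the host and the sort, and differ in whether the tumour cells bear the antigen. The labels call the arrays biological replicates and do not say whether plugs were pooled.

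Type I interferons act on their targets mainly through the interferon-stimulated response element (ISRE), which is bound by a complex that includes STAT2 and IRF9, whereas interferon-gamma acts mainly through the gamma-activated site (GAS). Many ISGs respond to both. Their products block viruses at different steps: some bind viral RNA or stop its translation, some sense double-stranded RNA in the cytosol, the Oas enzymes make the messenger that activates RNase L, and ISG15 is attached to other proteins in the way ubiquitin is. In macrophages they are also part of the activated state that follows exposure to interferon from T and natural killer cells.

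Promoter sequences are shown for 8 members because they place the ISRE, and in Bst2 a GAS as well, just before the start of genes whose RNA differed unequally between the groups. Oas1g, which has no RNA value here, is shown beside its near copy Oas1a, whose GAS core lies outside the printed stretch. They are RefSeq promoters of build GRCm38.p6, read 5′ to 3′ on the gene's strand, and the capitals mark matches to the ISRE core GAAANNGAAA on either strand or to the GAS core TTCNNNGAA, which reads the same on both strands. Overlapping matches run together in 1 block of capitals, as in Isg15 with 3 ISRE cores and in Bst2, where the GAS core runs into 2 ISRE cores.
Isg15 (chr4:156200849-156200918, minus strand): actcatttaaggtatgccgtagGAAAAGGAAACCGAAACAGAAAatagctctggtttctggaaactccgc
Bst2 (chr8:71537563-71537632, minus strand): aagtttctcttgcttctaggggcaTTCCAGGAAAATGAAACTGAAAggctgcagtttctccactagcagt
Oas3 (chr5:120777690-120777759, minus strand): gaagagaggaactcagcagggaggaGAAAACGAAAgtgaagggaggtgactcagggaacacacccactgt
Oas1a (chr5:120907526-120907565, minus strand): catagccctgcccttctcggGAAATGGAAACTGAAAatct
Oas1g (chr5:120887614-120887653, minus strand): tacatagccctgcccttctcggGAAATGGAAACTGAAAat
Ifit1 (chr19:34640759-34640828, plus strand): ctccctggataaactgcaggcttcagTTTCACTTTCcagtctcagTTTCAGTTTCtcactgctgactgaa
Ifit3 (chr19:34583359-34583428, plus strand): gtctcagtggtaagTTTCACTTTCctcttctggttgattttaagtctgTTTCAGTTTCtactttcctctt
Ddx60 (chr8:61928017-61928086, plus strand): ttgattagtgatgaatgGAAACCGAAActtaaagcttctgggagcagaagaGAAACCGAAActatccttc

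Across the set the RNA of most members was modestly more abundant in tumoricidal macrophages, and no member passed the test. The log2 difference, tumoricidal minus control, was positive in 28 of 32 members (87.5%), against 63% of all genes, and its median was 0.68, against 0.13 over all genes. All measured members lay above the median level, and of genes above it 6297 of 8537 were positive, with a median of 0.2. Differences of the members ran from -0.55 for Ifitm1 to 1.53 for Herc6. None of the 53 member probe sets had a limma adjusted p under 0.05, the threshold for a call, and 0.0512% of all probe sets tested did. At an unadjusted p under 0.05, 13 members were higher and 0 lower, which is 40.6% of the set against 6.12% of all genes and 8.12% of genes above the median level. In 19 members (59.4%) every tumoricidal array exceeded both control arrays, a state found in 17% of all genes and 25.8% of genes above the median level. Since the choice of members was not blind to these data, the contrasts with all genes describe the set and do not test it. The median of all genes shifts with the scaling of the arrays, to -0.07 with the deposited scaling and 0.02 after quantile normalization. Relative to it, the members' median was 0.55 higher here, 0.51 higher with the deposited scaling and 0.32 higher after quantile normalization.

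**Figure D1:**
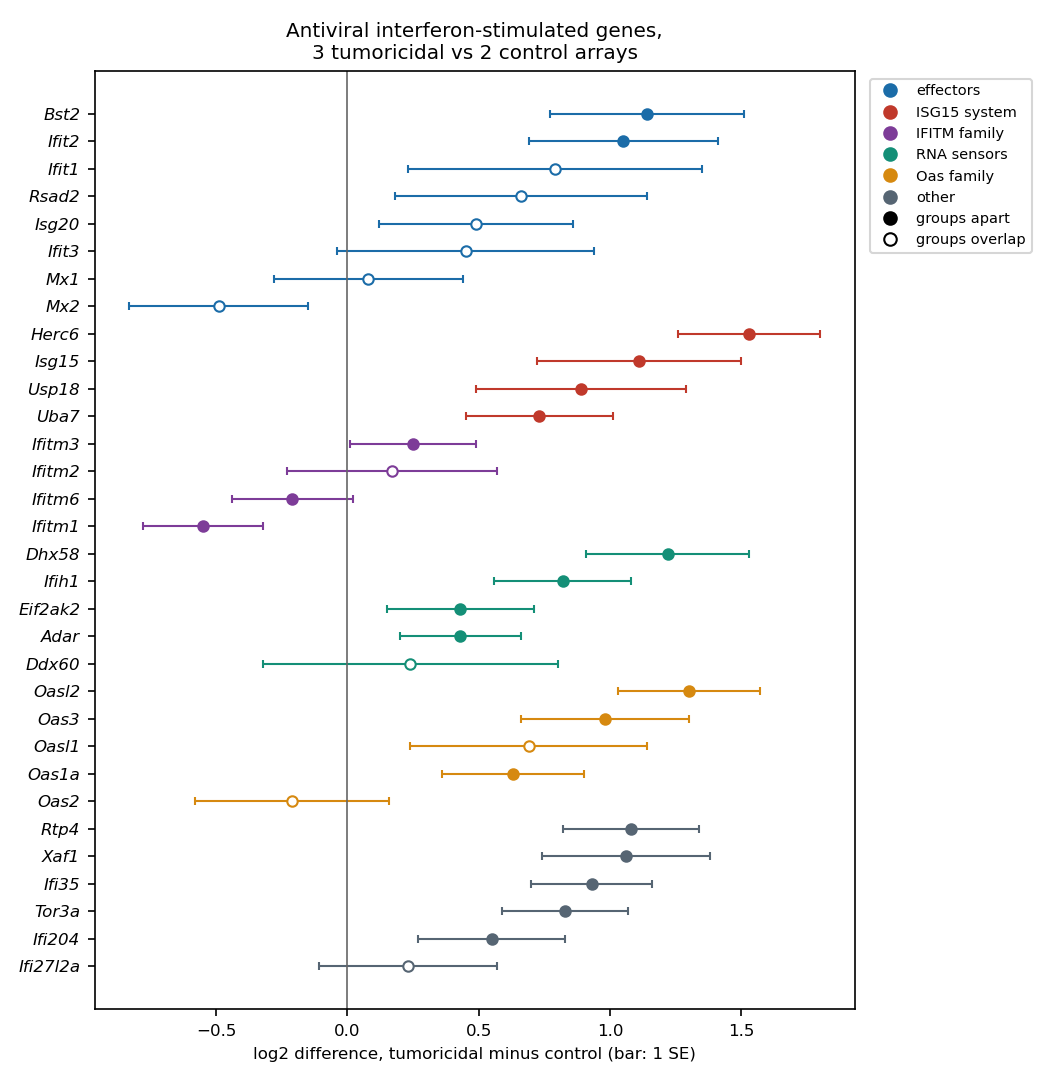
Log2 difference (tumoricidal minus control, horizontal axis) of the 32 measured members, grouped by role, with bars of 1 standard error from limma. Filled points mark members whose groups do not overlap on any array, and open points those that overlap. Herc6 stands farthest to the right at 1.53, and Mx2, Ifitm6, Ifitm1 and Oas2 lie left of 0.

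The sorted cells carried macrophage RNA on all arrays: none of the 10 macrophage markers was at the floor in either group, and their summed signal was 26478 to 39619 in tumoricidal and 23689 to 30896 in control arrays. CD11b is also found on other leukocytes. Natural killer markers (8 of 9 measured) summed to 1153 to 3154 against 245 to 558. Neutrophil markers (10 of 12, none at the floor throughout a group) summed to 9822 to 11299 against 4380 to 7262. Most of the neutrophil sum was S100a8 and S100a9. Of the 10 neutrophil markers 8 had positive differences, and Mpo (-0.29) and Elane (-0.35) were negative. Plasma cell markers (10 of 10), which the myeloma can carry, summed to 3606 to 4887 against 5643 to 6319. The largest part of that sum was Xbp1, which went the other way (3132, 3098 and 3297 against 2456 and 2721). Of these 10 markers 7 had negative differences, among them Pou2af1 (-3.24) and Jchain (-2.80), and the median was -0.87. Plasmacytoid dendritic cell markers (7 of 7) summed to 384 to 428 against 602 to 613. The gap in the plasmacytoid sum lies mainly in Tcf4 (212 to 315 against 458 to 465). The dim Siglech, at the floor on 2 arrays, was also lower on every tumoricidal array (3.76, 3.75 and 8.18 against 18.8 and 17.4). Of the 7 plasmacytoid markers 4 had positive differences, and the median over all 7 was 0.04. Inflammatory monocyte markers (6 of 8) summed to 16182 to 19527 against 16141 to 16496. Of these 6 markers 3 had positive and 3 negative differences, and the median was 0. Plac8 (0.89) was higher and Fn1 (-0.36) lower on every tumoricidal array. T cell markers (9 of 11) summed to 1465 in tumoricidal replicate 2 against 126 to 164 in the other tumoricidal and 114 to 224 in the control arrays. The natural killer marker Klra8 was at the floor on both control arrays and tumoricidal replicate 2, and the plasma cell marker Tnfrsf17 was at the floor on all 3 tumoricidal arrays. The part of these cells in the results was not tested. In such bulk samples fewer cells of a type and less RNA per cell cannot be told apart.

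Among the direct effectors, Bst2 and Ifit2 had the largest differences, and the Mx genes did not follow them. Bst2 encodes tetherin, which holds budding virus at the cell surface. Its scaled signal was 681, 479 and 836 on tumoricidal replicates 1 to 3 and 227 and 380 on control replicates 1 and 2. All 3 tumoricidal arrays lay above both controls, and the groups differed on the log2 scale by 1.14 (SE 0.37, limma adjusted p = 0.519), a 2.21-fold ratio. Ifit2, one of the tetratricopeptide proteins that bind viral RNA, had signals of 1726, 1012 and 1315 against 811 and 499. These groups too were apart, by 1.05 (SE 0.36, limma adjusted p = 0.539), though not after quantile normalization.

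The neighbouring genes Ifit1 and Ifit3, which share chromosome 19 with Ifit2, overlapped between groups. Ifit1 had 853, 442 and 344 in tumoricidal arrays and 468 and 183 in controls, so that control replicate 1 exceeded 2 of the 3 tumoricidal arrays. For Ifit3 the values were 918, 365 and 415 against 494 and 290. In both genes tumoricidal replicate 1 was the highest and control replicate 2 the lowest array. The difference of Ifit1 was 0.79 over all arrays, 0.41 without the former and 0.11 without the latter. That of Ifit3 was 0.45, and 0.04 and 0.07 without these arrays in turn. The 2 promoters printed above hold a pair of ISRE cores each, and their RNA did not separate the groups.

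Rsad2, which makes viperin, an enzyme whose product ends viral RNA chains, gave 2991, 1267 and 2957 against 1779 and 1133. Its 3 probe sets had differences between 0.51 and 0.66, and tumoricidal replicate 2 lay between the controls on the brightest of them and below both on the others. Isg20, a nuclease that degrades viral RNA, differed by 0.49 with overlapping groups. The GTPase Mx1, of which many laboratory strains carry a defective allele, had 485, 301 and 344 against 459 and 264, a difference of 0.08 that turned to -0.15 with the deposited scaling and -0.16 after quantile normalization. Its relative Mx2 was lower on average: 61.2, 43.8 and 51.8 against 96.2 and 54.8, with a difference of -0.49 (SE 0.34, limma adjusted p = 0.803). One tumoricidal array was above control replicate 2, so that the Mx2 groups overlapped.

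The ISG15 conjugation system was the role group with the highest median, 1 over its 4 members, and each of the 4 was apart between the groups. Without tumoricidal replicate 1 its median was 0.77, below the 0.82 of the group of other members. ISG15 is the ubiquitin-like modifier itself, UBA7 activates it, HERC6 is the ligase that attaches it in the mouse, and USP18 removes it and also dampens signalling at the type I interferon receptor. Herc6 had 654, 493 and 698 in tumoricidal arrays and 227 and 196 in controls. The group means were 615 ± 108 (SD, n = 3) and 212 ± 22.1 (SD, n = 2), and no tumoricidal array came near a control. The log2 difference was 1.53 (SE 0.27, limma adjusted p = 0.211), a 2.88-fold ratio, and all 4 of its probe sets agreed, at 1.25 to 1.58.

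Isg15 had 1689, 769 and 1301 against 595 and 514, a difference of 1.11 (SE 0.39, limma adjusted p = 0.559). Since this probe set also carries the name Gm9706, RNA of both would be read together. Uba7 had 407, 300 and 459 against 232 and 231, and its 3 probe sets gave 0.73 to 0.89. The controls of Uba7 were nearly identical and both lay below every tumoricidal array. Usp18 had 762, 381 and 407 against 317 and 222, a difference of 0.89 (SE 0.40, limma adjusted p = 0.690), with the groups apart here but overlapping under the deposited scaling and after quantile normalization. For all 4 genes tumoricidal replicate 2 was the lowest of its group, as it was for 26 of the 32 members.

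**Figure D2:**
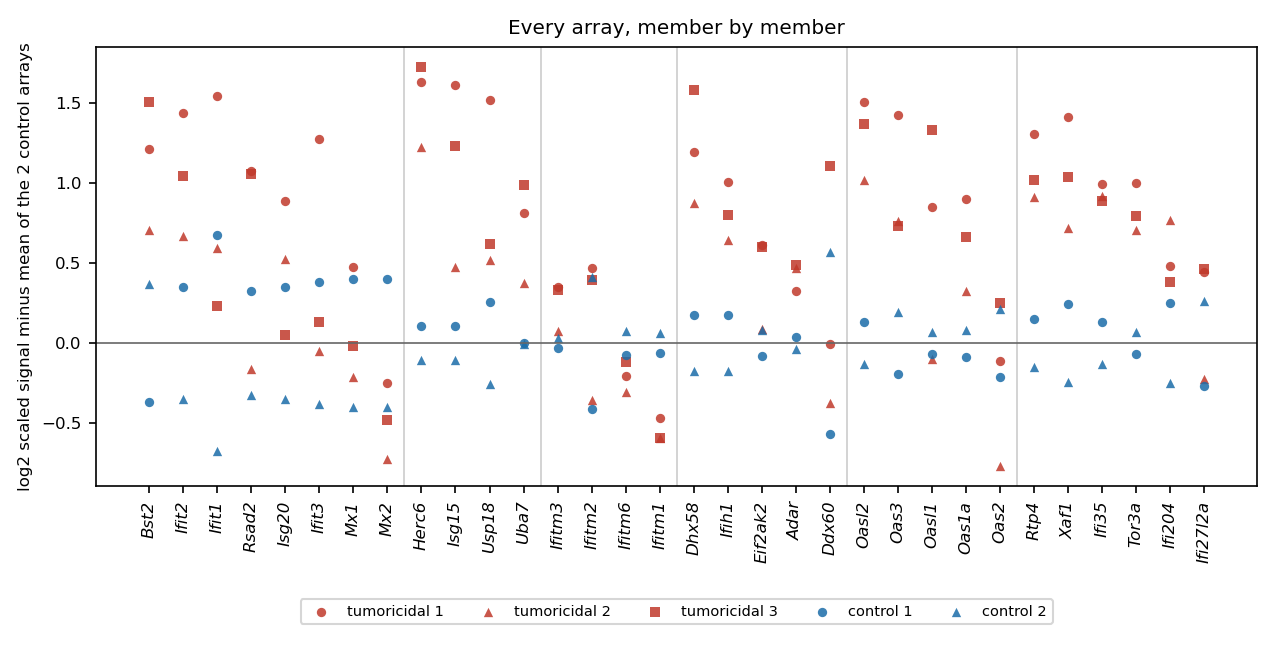
Log2 scaled signal of each member on each array, minus the mean of the 2 control arrays (vertical axis), with members ordered by role along the horizontal axis. Red symbols are tumoricidal and blue symbols control arrays. Tumoricidal replicate 2 (red triangles) is the lowest tumoricidal array for 26 of 32 members and replicate 1 (red circles) the highest for 21.

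The IFITM proteins, small membrane proteins that stop enveloped viruses from entering the cytosol, had the lowest median of the role groups, -0.02, against -0.25 with the deposited scaling and -0.34 after quantile normalization. Ifitm3, the best known of them, had high signals on all arrays: 8018, 6641 and 7928 against 6160 and 6445, a difference of 0.25. The tumoricidal arrays were above the controls here and overlapped with them under the other scalings, where its difference was 0.02 and 0. Ifitm2 overlapped at 0.17. Ifitm1 was lower on every tumoricidal array, with 544, 498 and 498 against 719 and 785, a difference of -0.55 (SE 0.23, limma adjusted p = 0.643). Ifitm6, an IFITM gene found in the mouse, had 655, 613 and 698 against 718 and 798, also without overlap, at -0.21. Ifitm1 and Ifitm6 were thus the members whose groups were apart in the opposite direction, and they were so under all 3 scalings. Under the main scaling these 2 of 32 members are close to the share of all genes, 1112 of 17074. Among genes above the median level 332 of 8537 were apart in this way. Whether the difference of the IFITM genes from the other members exceeds chance was not tested.

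Among RNA sensors the RIG-I-like receptors led. Dhx58 (LGP2), which tunes the other sensors of this family, had 473, 379 and 619 against 233 and 183, all tumoricidal arrays lying higher. The difference was 1.22 (SE 0.31, limma adjusted p = 0.376), and a second probe set gave 1.60 while the dimmest gave 0.20. Ifih1 (MDA5), the sensor of long double-stranded RNA, had 1368, 1066 and 1185 against 767 and 604, a difference of 0.82 (SE 0.26, limma adjusted p = 0.505) with the groups apart, though not after quantile normalization. The kinase Eif2ak2 (PKR), which shuts down translation when it binds double-stranded RNA, and the RNA editor Adar both differed by 0.43. On their brightest probe sets both had groups apart under the main scaling and overlapping ones under the other scalings. The 3 probe sets of Eif2ak2 gave 0.37 to 0.72, and those of Adar 0.1 to 0.65. On the Adar probe sets at 0.1 and 0.65 the groups overlapped under the main scaling. Ddx60, a helicase that aids the RIG-I-like receptors, had 402, 311 and 868 against 272 and 599. On its brightest probe set the array from each group in batch B, explained below, was high and the groups overlapped. The difference of 0.24 became -0.01 after quantile normalization. A second, dimmer probe set overlapped too, at 0.04, with 106, 106 and 151 against 143 and 93.5. There control replicate 2, of batch B, was the lowest array.

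The Oas family split by member. Oasl2, an Oas-like protein, had 1088, 777 and 991 in tumoricidal arrays against 420 and 349 in controls. The group means were 952 ± 159 (SD, n = 3) and 384 ± 50.2 (SD, n = 2), and the arrays of the groups lay well apart. Its difference was 1.30 (SE 0.27, limma adjusted p = 0.275), the largest after Herc6 and a 2.46-fold ratio. Oas3, which makes the RNase L messenger, had 228, 144 and 141 against 74.2 and 96.7, a difference of 0.98 (SE 0.32, limma adjusted p = 0.530). Oas1a had 2980, 2004 and 2535 against 1507 and 1694, apart in each of the 3 scalings, with a difference of 0.63.

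Oasl1, known for holding back translation of Irf7, had 1157, 598 and 1615 against 611 and 674, and overlapped through tumoricidal replicate 2. Oas2 was the family's exception in sign, with 512, 325 and 659 against 479 and 641, overlapping groups and a difference of -0.21 (SE 0.37, limma adjusted p = 0.896). With the other scalings every tumoricidal array of Oas2 lay below both controls. Oas1a and Oas1g are near copies that lie side by side on chromosome 5, and the printed stretches of their promoters carry the same pair of overlapping ISRE cores. Beyond the printed stretch Oas1a also has a GAS core, 98 bases before its start, and the Oas1g promoter has none. A probe set named for Oas1a may also read RNA of its copies.

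On their brightest probe sets, Rtp4, Xaf1, Ifi35 and Tor3a of the remaining members were higher on all tumoricidal arrays under all 3 scalings. Rtp4, a receptor transporter that binds viral RNA, had 3316, 2523 and 2722 against 1486 and 1210, a difference of 1.08 (SE 0.26, limma adjusted p = 0.352). Xaf1, a promoter of apoptosis, had 975, 603 and 754 against 435 and 309, a difference of 1.06. A second, dim Xaf1 probe set with signals of 11.2 to 17.4 gave -0.10, the one case among 11 members with several probe sets of their own in which they disagreed in sign. Ifi35, a leucine zipper protein released by activated macrophages, had 2494, 2376 and 2320 against 1375 and 1143, a difference of 0.93 (SE 0.23, limma adjusted p = 0.372). Its tumoricidal arrays lay close together, and all 3 of its probe sets were positive, at 0.93 to 1.20. Tor3a, a torsin ATPase, had 412, 336 and 358 against 197 and 216, a difference of 0.83. Its 3 probe sets gave 0.83 to 0.97, and on the dimmest the groups overlapped (211, 96 and 206 against 70.2 and 106). Ifi204, of the family that senses DNA, differed by 0.55, and the probe set it shares with Mndal, Ifi211 and Ifi205 gave 0.49. Ifi27l2a, a small mitochondrial protein, differed by 0.23 with overlapping groups.

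On the probe set that represents each gene, 12 members were apart with tumoricidal higher under each of the 3 scalings. These were Bst2, Isg15, Uba7, Herc6, Dhx58, Oas1a, Oas3, Oasl2, Ifi35, Rtp4, Xaf1 and Tor3a. With the deposited scaling alone 43.8% of members were apart in this way, against 10% of all genes, and after quantile normalization 37.5% were, against 12.9%. An unadjusted p under 0.05 was reached under all 3 scalings by 5 members, namely Bst2, Herc6, Dhx58, Oasl2 and Tor3a. For the counts of 12 and 5 members under all 3 scalings, the matching share of all genes was not computed. The number of members at an unadjusted p under 0.05 was 13 here. It was 7 with the deposited scaling, under which 3.69% of all genes reached that level, and 6 after quantile normalization, against 5.03%. It was 5 without tumoricidal replicate 1 (4.25% of all genes), 8 without tumoricidal replicate 3 (5.2%) and 6 without control replicate 2 (10.3%).

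The labels give no date, but the spike-in control RNA BioC separates the arrays. Its signal was 645 to 741 in batch A, made up of control replicate 1 with tumoricidal replicates 1 and 2, and 189 to 190 in batch B, made up of control replicate 2 with tumoricidal replicate 3. Members had a median difference of 0.46 in the first of these batches and of 0.68 in the other. The median of all genes was 0.20 and 0.07, so that the members stood 0.25 and 0.61 above it. Fitting batch as a block gave 0.66. The sign was positive in both batches for 26 of 32 members. Rsad2 differed by 0.13 among the batch A arrays and by 1.38 between those of batch B, and Oasl1 by 0.45 and 1.26. Oas3 ran the other way, with 1.29 and 0.54. Herc6 (1.32 and 1.83), Oasl2 (1.13 and 1.51) and Bst2 (1.33 and 1.14) were above 1 in both. Mx1 changed sign, at -0.27 and 0.38. Batch B holds 1 array of each group, so its values have no replicate.

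**Figure D3:**
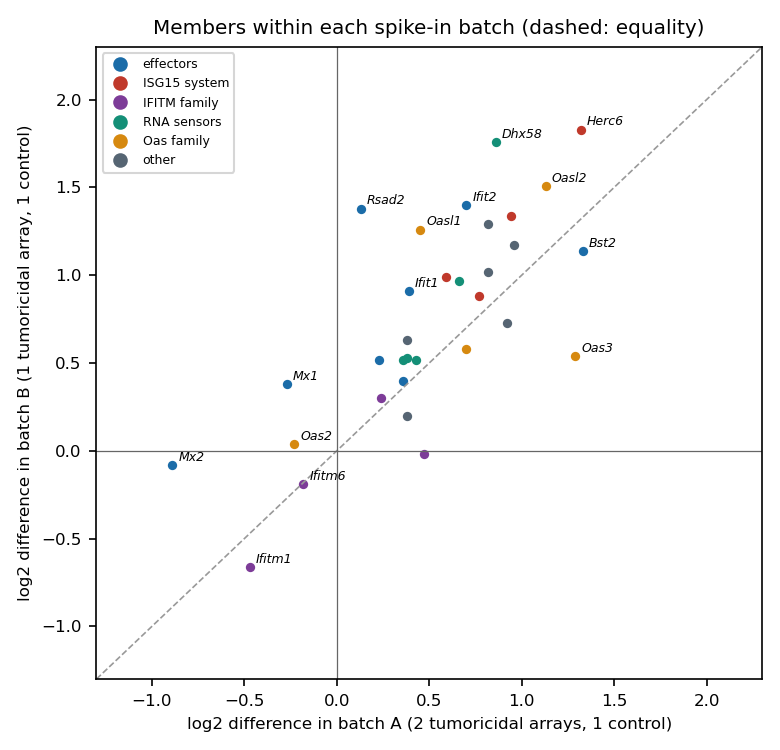
Log2 difference of each member in batch A (horizontal axis) plotted against that in batch B (vertical axis), coloured by role. The dashed line marks equal values. Rsad2 lies far above the line at 0.13 and 1.38, Oas3 below it at 1.29 and 0.54, and Herc6 at the upper right with 1.32 and 1.83.

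Upstream of the ISGs, the type I ligand and receptor genes had medians near 0, the signalling genes a median close to that of the members, and 0 of the 33 measured genes (39 listed) passed the test. Of 5 measured type I ligand genes (8 listed) the differences ran from -1.20 to 0.60, with a median of 0.05 and none at an unadjusted p under 0.05. Apart from Ifnb1 these genes were at the floor on 2 to 4 of the 5 arrays, so that the floor largely sets their differences. Ifnb1, the interferon-beta gene, had signals of 10.3, 18.4 and 63.8 in tumoricidal and 25.6 and 108 in control arrays. Both batch B arrays were above all batch A arrays for Ifnb1, and within the batches the difference was -0.90 and -0.76. The 6 receptor genes, of type I, II and III interferons, had a median of 0.01, and all of them overlapped between groups. With the deposited scaling the receptor median was -0.22, and after quantile normalization -0.25.

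All 12 measured signalling genes (13 listed) had positive differences, with a median of 0.74. With the deposited scaling 10 of them were positive (median 0.51), and after quantile normalization 9 (median 0.45). Here 6 reached an unadjusted p under 0.05 as higher and 0 as lower, and 0 passed after adjustment. The inhibitor Socs1 led with 182, 105 and 120 against 12.7 and 10.2, a difference of 3.53 (SE 0.33, limma adjusted p = 0.0577). It passed in 3 alternative fits: with probe sets above the median alone (adjusted p = 0.00239), with an intensity trend (0.0274) and with no floor (0.0431). Over all its alternative fits the adjusted p ran from 0.00239 to 0.908. Irf1, the transcription factor first in line after interferon-gamma, had 2554, 1874 and 4135 against 353 and 659, a difference of 2.49 (SE 0.45, limma adjusted p = 0.220). Jak2 (1.09), Irf8 (1.02), Stat2 (1.02) and Irf5 (0.77) were the other 4. Of the other genes named by rule, Irf9, of the ISRE-binding complex, differed by 0.37 with the groups apart, and Irf7, which amplifies type I interferon production, by 0.71 with overlapping groups.

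Nucleic acid sensors that are not members (10 of 12 measured) had a median of 0.44, with 9 positive and 2 at an unadjusted p under 0.05. With the deposited scaling the median was 0.21 (7 positive), and after quantile normalization 0.30 (6 positive). Zbp1, a sensor of Z-form nucleic acids that triggers cell death, had 2009, 1228 and 1444 against 401 and 348, a difference of 2.03 (SE 0.30, limma adjusted p = 0.154), larger than that of any member. Ddx58 (RIG-I) differed by 0.62. Irf1 and Zbp1 passed when only probe sets above the median were tested (adjusted p = 0.0380 and 0.0255), a setting under which 0 of the member probe sets passed. Their adjusted p over all alternatives reached 0.908.

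The guanylate-binding proteins and immunity-related GTPases, whose genes are known mainly as targets of interferon-gamma, differed by more than any antiviral member. The 6 measured guanylate-binding protein genes (11 listed) ran from 2.44 to 4.62 with a median of 3.89, and 4 of them passed the test (lowest limma adjusted p = 0.0481). These calls were lost, as were all others, when any array was left out or batch was fitted as a block. The 5 measured immunity-related GTPase genes (8 listed) ran from 2.28 to 2.79 with a median of 2.54, and 0 passed. The top antiviral member, Herc6 at 1.53, was below the lowest of either family. Between the members and these families the difference itself was not tested, and all values come from the same arrays.

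**Figure D4:**
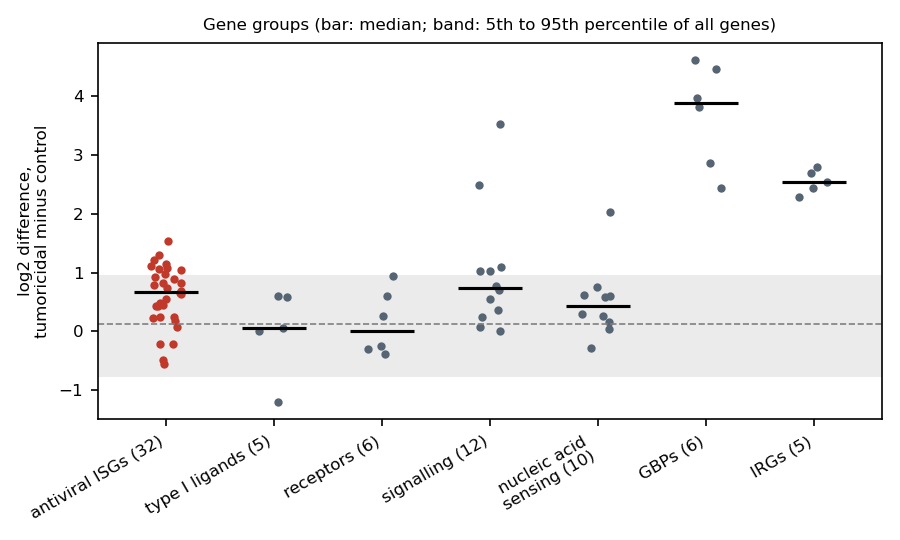
Log2 difference (tumoricidal minus control, vertical axis) of each gene in the antiviral set, the upstream gene lists and 2 GTPase families, with horizontal bars at the medians. The grey band spans the 5th to 95th percentile of all genes, from -0.75 to 0.94, and the dashed line their median, 0.13. The antiviral members spread from -0.55 to 1.53, below all points of the GBP and IRG columns.

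Across all RefSeq promoters of this length, which reach from upstream of a gene's start to just past it, 3.44% held the ISRE core GAAANNGAAA on either strand and 8.3% the GAS core TTCNNNGAA. Of the 34 members 25 matched the promoter table, and in 13 of these (52%) at least 1 start site had an ISRE core, with a GAS core in 9 (36%). By gene, 3.99% and 9.55% of all genes did. Among guanylate-binding protein genes with a promoter entry, 5 of 5 held an ISRE core and 2 of 5 a GAS core, and among immunity-related GTPase genes 6 of 7 and 5 of 7. Mx1, Mx2, Usp18, Dhx58, Oas2, Ifi204, Ifi27l2a, Rtp4 and Tor3a had no entry. Among members whose groups were apart with tumoricidal higher, 7 of 14 held an ISRE core and 7 of 14 a GAS core. Among the other 9 measured members the counts were 5 and 2. This split uses the main scaling, and the GAS counts depend on it. Ifit2, Ifitm3, Eif2ak2 and Adar, each with a GAS core, were apart under that scaling and overlapped after quantile normalization. Herc6 and Oasl2, with the largest differences, had neither core in this window, and Ddx60 and Ifit3, which overlapped between groups, had 2 ISRE cores each. The counts describe these windows, and no test was made.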

How the data were processed

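CD11b+ cells were sorted by FACSAria and total RNA (6 µg per array) was labelled for Affymetrix arrays, per the labels' protocols. The authors deposited linear signal intensity for 45101 probe sets on 5 arrays; the software is not given in the sources used here, and each array's mean after removal of 2% at either end was 100.

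Array medians differed by 1.47 times, above a limit of 1.1, so each array was scaled to their median. Then 64 control probe sets were removed, signals under the pooled 25th percentile (4.79) were raised to it, and log2 was taken. The 41053 probe sets above this floor on at least 1 array were fitted with limma 3.58.1 (R 4.3.3; two-sided, Benjamini-Hochberg over all of them), 3 tumoricidal against 2 control arrays, without covariates. The fit was tried on simulated data with changes larger than the difference of any member. That trial does not show whether differences of the members' size would be called. Gene names came from the platform annotation. Each gene is represented by its brightest own probe set on average, and member probe sets with several symbols were kept. Scaled signals are printed per array. Differences are on the log2 scale, and probe sets of different genes are not compared in level.

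Members and lists were chosen with earlier results of these data known. The naming rule covers all members, with every array's value for those at an unadjusted p under 0.05 and the 2 largest differences per role; other array values were picked after they were seen. Upstream genes are named at an unadjusted p under 0.05, plus Ifnb1, Stat2, Irf7 and Irf9. Promoters are RefSeq's (GRCm38.p6). Figures were drawn with matplotlib 3.10.9. Arrays give no counts, and their number limits the precision.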

Additional observations from a re-analysis of the deposited data

How the results depend on the processing

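None of the member probe sets was called under any of the settings fitted, multi-symbol probe sets left out included. The members' median stayed positive throughout: 0.53 to 0.89 over arrays left out, 0.34 after quantile normalization. The number of members apart with tumoricidal higher was 12 after quantile normalization and 19 to 24 over arrays left out, where 22.8% to 41% of all genes were apart in this way, against 17% with all arrays. Over all probe sets the count of calls, 21, became 0 with a floor at the 10th percentile, the spike-in batch as a block or any array left out, 71 with no floor, 193 with only probe sets above the median, 62 with no filter and 65 with an intensity trend. The balance at an unadjusted p under 0.05 depends on the scaling: 61.6% of such probe sets were higher here, 31.9% with the deposited scaling and 50.5% after quantile normalization. Of the 32 members, 27 kept their sign in every alternative run, Ifitm3 at 0 after quantile normalization, and 5 did not. Mx1 was -0.15 with the deposited scaling, -0.16 after quantile normalization, -0.27 within batch A and -0.32 to 0.48 over arrays left out. Ifitm2 was -0.06, -0.17, -0.02 within batch B and -0.25 to 0.58. Ddx60 was -0.01 after quantile normalization, -0.19 with the replicate block and -0.33 to 0.81. Oas2 was 0.04 within batch B and -0.44 to 0.07. Ifi27l2a was 0 with the deposited scaling, -0.11 after quantile normalization and -0.04 to 0.49. The IFITM median was 0.04 with the batch as a block, 0.03 within batch A and -0.27 to 0.09 over arrays left out. The cause was not tested.

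Whether the replicate numbers shared by the groups mark pairs could not be decided. Same-numbered arrays' deviations from their group mean correlated at 0.02 and -0.24 over probe sets. Tumoricidal replicate 3 with control replicate 2, of the same batch, gave 0.26. With 2 control arrays the control deviations mirror each other, so these correlations are tied to each other by arithmetic. With the replicate block, in which tumoricidal replicate 3 has no partner, the members' median was 0.62 and 0 of all probe sets were called.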
